A study of Mus musculus with 24 samples.

Results

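Histones are the proteins around which DNA is wrapped, and the 102 genes that encode them in this data set were examined together, out of 25239 genes measured. They were chosen by symbol alone, as genes named for histones H1, H2A, H2B, H3 and H4 in the current or older mouse nomenclature. Of these, 66 were replication-dependent genes and 8 were replacement variants chosen by name (H1f0, H2ax, H2az1, H2az2, H2aj, Macroh2a1, H3f3a and H3f3b). The other 28 carried a histone prefix but were in neither list, although some of them, such as H1f10, are variants too. Below, the variants are the 8 named here. The older names of the variants include H2afx for H2ax, H2afz for H2az1, H2afv for H2az2, H2afj for H2aj and H2afy for Macroh2a1. H2bu2, H4f16 and H2bu1-ps, whose current symbols lie outside the prefixes, were not included.

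The libraries came from 6 cell lines grown from small cell lung tumours of mice of genotype Rb1 flox/flox, Rbl2 flox/flox and Trp53 XTR/XTR, which also carried Rosa26 FlpO-ER. Cre from an adenovirus with the CMV promoter started the tumours and put Trp53 into its trapped, silent form, so that every group, controls included, lacked Rb1 and Rbl2. 4-hydroxytamoxifen (4-OHT) activates FlpO-ER, which removes the trap and restores p53. The lines 4711-1, 4711-18 and 4716-11 (replicates 1, 2 and 3 of Type D, which die after restoration) and 4711-11, 4716-10 and 4716-14 (replicates 1, 2 and 3 of Type V, which stay viable) each gave 4 libraries at 72 h. These were Control (vehicle), Control + CsA (cyclosporin A, a ligand of cyclophilins), Restored (4-OHT) and Restored + CsA (4-OHT with cyclosporin A), so 8 groups of 3 lines. Each replicate is a separate line, and some lines share a number prefix, so the spread is that between lines.

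Values are TPM, shares of transcripts that are scaled for length and sum to 1000000 in each library, so sequencing depth is unknown. Trp53 itself checked the labels: it lay between 10.5 and 15.3 TPM in the 12 libraries without 4-OHT and between 181 and 253 TPM in the 12 with it. Several markers of the neuroendocrine tumour type were low or missing, with Chga listed at 0 in all 24 libraries and Syp at 0.109 to 1.41 TPM, while Ncam1 was at 4.46 to 27.3 TPM. Leukocyte markers summed to at most 1.72 TPM and endothelial markers to at most 0.615 TPM. The 5 fibroblast markers summed to 75.3 to 563 TPM in Type V libraries and to 0.304 to 1.93 TPM in Type D libraries.

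Replication-dependent histone genes are read in S phase, when new DNA must be packaged, and most lie in clusters. Their mRNAs usually end in a short stem-loop, bound by the stem-loop binding protein, in place of a poly(A) tail. Variant histones are encoded by single genes outside those clusters, are made through the cell cycle and in cells that have stopped dividing, and usually have polyadenylated mRNAs. The libraries were made with a kit that selects poly(A) mRNA, so the level of a replication-dependent gene here is that of its polyadenylated or carried-over transcripts and not of all its mRNA. Copies within the H2A, H2B, H3 or H4 class are also alike in their coding sequence, so reads can be split among them. Single values of these genes are uncertain, and the likeness of copies was not measured here for any class.

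The stem-loops of the most abundant genes that carry one are shown, because the level of a gene is set beside the distance of its stem-loop from the annotated transcript end. They were searched in GENCODE M21 transcripts (GRCm38) as a 6-base stem that starts GGC around a 4-base loop that starts TT. The letters are mRNA-sense, 5′ to 3′, with the stem in capitals and the loop in lower case.
H2ax, chr9:44335240-44335255, plus strand: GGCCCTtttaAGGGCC
H1f2, chr13:23739512-23739527, plus strand: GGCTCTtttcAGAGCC
H2aw, chr11:58955172-58955187, plus strand: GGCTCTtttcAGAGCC
H4c9, chr13:22040966-22040981, minus strand: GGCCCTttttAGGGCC
H2bc8, chr13:23571843-23571858, plus strand: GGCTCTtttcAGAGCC

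All 5 sit after the stop codon, in the single exon of the gene. In H1f2, H2aw, H4c9 and H2ax the annotated transcript runs on for 840, 1643, 330 and 822 bases past the stem-loop and has a poly(A) signal (AATAAA or ATTAAA) in its last 50 bases. In H2bc8 it runs on for 155 bases without such a signal. Of 58797 protein-coding transcripts in the annotation, 67 (0.114%) hold a match to the stem-loop and 50.2% a poly(A) signal in that place.

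Among the replication-dependent genes, 40 had a stem-loop by this search. In 21 of them it lay 3 to 74 bases from the transcript end, and the mean level of these genes over the 24 libraries was 0 to 0.982 TPM (median 0.261). In the other 19 the annotated transcript ran 151 to 4884 bases beyond it, and the mean level was 0 to 61.2 TPM (median 0.61). This is a description of levels next to an annotation, and GENCODE M21 may differ from the models behind the TPM values. Of the 8 variants, H2ax alone had a stem-loop, so its level here may also leave out transcripts without a poly(A) tail. A poly(A) signal was found in 7 of the 8, Macroh2a1 being the exception.

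Promoters were read for the letters that histone genes are known to share. RefSeq windows of 250 bases before to 50 after the start (GRCm38.p6) were found for 86 of the 102 genes, and both strands were searched. The first window shown lies between H2ac8 and H2bc8, which point away from each other, and the others are the 100 bases before H2az1 and H2aj, variants that were called lower and higher on restoration. Capitals mark the core promoter box TATAAA, the element CCAAT, the octamer ATTTGCAT, and, from the cell cycle element CHR, the letters TTTGAA, each on either strand.
Between H2ac8 and H2bc8, chr13:23571221-23571399, plus strand: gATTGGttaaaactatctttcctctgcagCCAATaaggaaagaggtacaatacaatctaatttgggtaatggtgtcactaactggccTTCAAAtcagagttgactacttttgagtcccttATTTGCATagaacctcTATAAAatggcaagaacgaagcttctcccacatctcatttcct
H2az1, chr3:137864387-137864486, plus strand: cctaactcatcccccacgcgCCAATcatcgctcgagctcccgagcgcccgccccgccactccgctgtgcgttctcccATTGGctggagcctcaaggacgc
H2aj, chr6:136808148-136808247, plus strand: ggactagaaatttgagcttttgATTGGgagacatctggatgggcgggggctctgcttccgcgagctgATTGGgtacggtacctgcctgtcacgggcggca

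In 53 windows of replication-dependent genes, 47 held CCAAT (88.7%, beside 37.4% of all 32851 windows) and 30 held TATAAA (56.6%, beside 13.6%). ATTTGCAT was in 7 of 15 H2A and 7 of 13 H2B windows and in none of the H1, H3 and H4 windows, beside 1.74% of all. AAACACA, the H1 box, was in 5 of 6 H1 windows, beside 7.18% of all. TTTGAA or TTCGAA was in 43.4% (all windows, 19.2%), and TTTCGCGC or TTTGGCGC in 13.2% (all windows, 0.813%). Of the 7 variant windows, 5 held CCAAT and 1 held TATAAA. None of these words contains another, but windows of neighbouring H2A and H2B genes overlap and share letters. H2bc8 and H2ac8 stand on the printed sequence with mean levels of 8.78 and 1.05 TPM, and H2az1 and H2aj both have 2 CCAAT matches in theirs.

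Abundance separated the classes. Mean TPM over 24 libraries was 70.1 to 1014 for the 8 variants (median 200) and 0 to 61.2 for the 66 replication-dependent genes (median 0.307). The order of the variants was H3f3b (1014 TPM, one of a pair of genes for the replacement histone H3.3), H2az1 (480 TPM, H2A.Z, found at promoters), H1f0 (284 TPM, the linker histone H1.0 of differentiated cells) and H3f3a (232 TPM, the other H3.3 gene). Macroh2a1 (168 TPM, macroH2A1, an H2A with a large non-histone domain), H2aj (119 TPM, an H2A variant), H2az2 (81.6 TPM, the second H2A.Z gene) and H2ax (70.1 TPM, the H2A that is phosphorylated beside DNA breaks) followed.

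In the replication-dependent class 11 genes were listed at 0 in every library and 5 reached a mean of 5 TPM. These were H1f2 (61.2 TPM, linker histone H1.2), H2aw (16.2 TPM, an H2A), H2bc4 (15.8 TPM, an H2B), H4c9 (12.3 TPM, an H4) and H2bc8 (8.78 TPM, an H2B). H1f2 made up 43.9% of the summed mean TPM of the class, and the first 4 genes 75.7%. H2bc21 (4.29 TPM), H2bc18 (1.42 TPM), H4c4 (1.22 TPM), H1f3 (1.14 TPM), H2ac8 (1.05 TPM), H3c8 (1.01 TPM, the highest of the H3 genes) and H4c8 (0.982 TPM) came next. By histone class the mean sum was 64.1 TPM for the 6 H1 genes, 33.3 for the 17 H2B genes, 20.6 for the 19 H2A genes, 16.9 for the 12 H4 genes and 4.56 for the 12 H3 genes. H1f10, the linker histone H1.10, was in neither list and had a mean of 65 TPM. The remaining 27 genes with a histone prefix, many of them known from testis, had a mean of under 1 TPM, 20 of them 0 throughout.

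**Figure D1:**
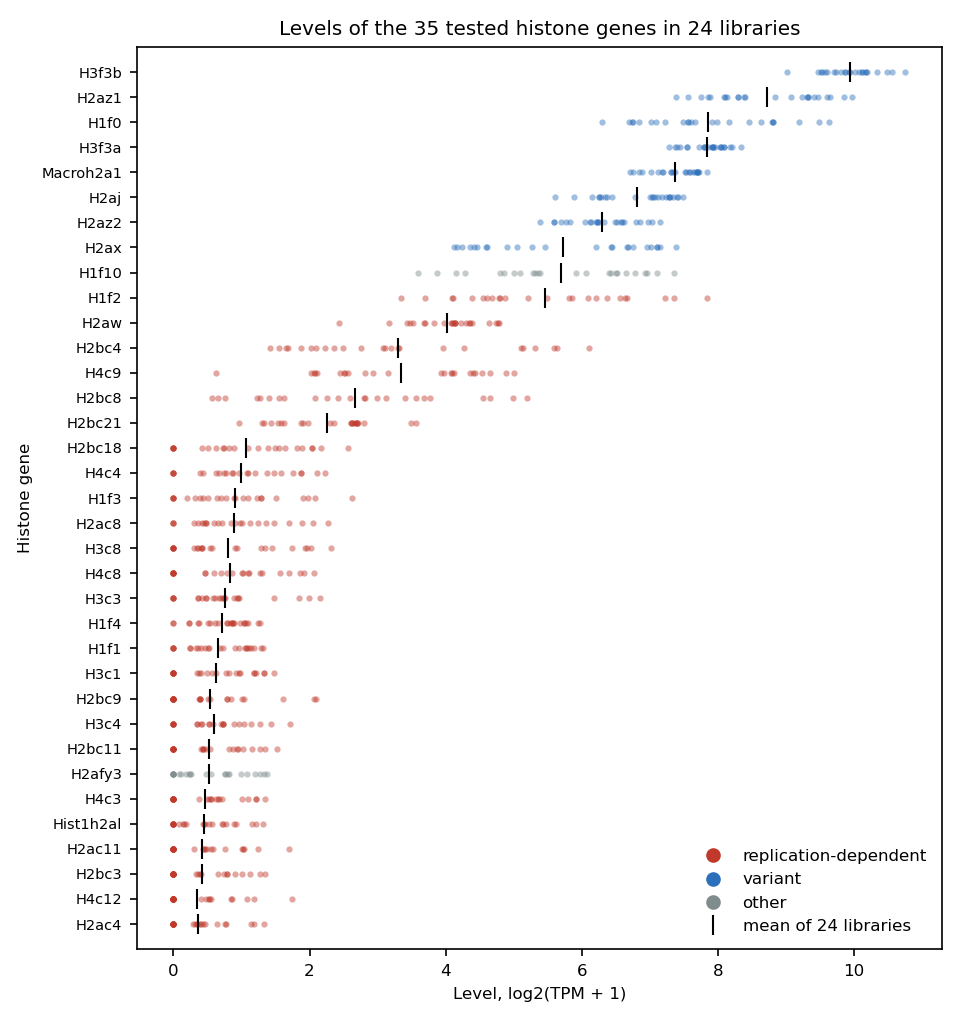
Level of each of the 35 histone genes that passed the filter, as log2(TPM + 1) on the horizontal axis, with 1 point per library (n = 24), a tick at the mean, and colour for the class. The 8 variants and H1f10 occupy the upper rows, and most replication-dependent genes sit near 0.

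Of the 102 genes, 35 reached 1 TPM in 3 or more libraries and were tested, namely all 8 variants, 25 replication-dependent genes and H1f10 and H2afy3 of the rest. The 41 replication-dependent genes left out never exceeded 2.03 TPM. The 8 variants reached 1 TPM in every library. Of the 25 replication-dependent genes, 12 reached 1 TPM in 3 or more libraries only among those without 4-OHT and none only among those with it. A lower level after restoration was thus in part set by the filter for these 12 (H1f4, H2ac4, H2ac8, H2ac11, H2bc3, H2bc9, H2bc11, H3c3, H3c4, H3c8, H4c3 and H4c12).

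The summed TPM of the 66 replication-dependent genes did not overlap between the types in Control. In Control it was 206, 323 and 215 TPM in the Type D lines and 71.1, 142 and 98.4 TPM in the Type V lines. The variant sum was 2582, 3755 and 2786 TPM in Type D and 2636, 2900 and 2919 TPM in Type V, where the ranges overlap. Replication-dependent transcripts thus amounted to 8.09% ± 0.467 of the variant sum in Type D and to 3.66% ± 1.13 in Type V (SD, n = 3).

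After restoration the replication-dependent sum was 42.6, 164 and 131 TPM in the Type D lines, each below its own Control, at 0.207, 0.508 and 0.609 of it. In the Type V lines it was 60.8, 85.8 and 70.7 TPM, at 0.855, 0.603 and 0.719 of Control. The variant sum was 1689, 1813 and 2312 TPM in Restored Type D and 1864, 2171 and 2705 TPM in Restored Type V. It stood at 0.654, 0.483 and 0.83 of Control in the Type D lines and at 0.707, 0.749 and 0.927 in the Type V lines. All 6 lines had lower sums of both classes in Restored than in Control. Sums were not tested, because a sum weights the most abundant genes.

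With CsA the replication-dependent sum was 226, 421 and 299 TPM in Control + CsA and 34.5, 139 and 59.5 TPM in Restored + CsA of Type D. In Type V it was 66.3, 146 and 108 TPM in Control + CsA and 63.3, 105 and 69.4 TPM in Restored + CsA. The type difference of Control was also seen in Control + CsA, again without overlap, while the ranges of the Restored groups overlapped.

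**Figure D2:**
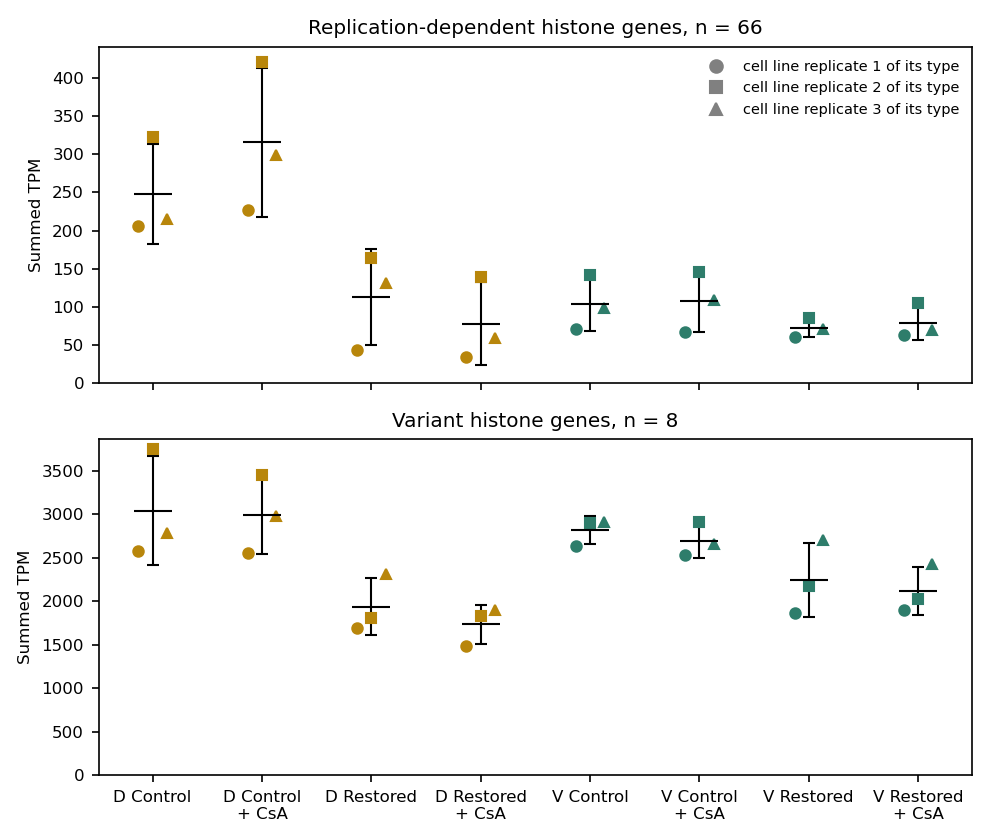
Summed TPM of the replication-dependent genes (upper panel) and of the variants (lower panel) by group, with 1 point per cell line, the mean as a bar and the SD as error bars (n = 3). The replication-dependent sum is highest in the 6 Type D libraries without 4-OHT, at 206 to 421 TPM, and the variant sum is lower in Restored groups of both types.

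On restoration 10 of the 35 tested histone genes were called lower in Type D and none higher. A gene was called where limma, fitted on log2(TPM + 1) to 14104 genes, gave a Benjamini-Hochberg adjusted p below 0.05 together with a size of 1 log2 or more. Of all genes tested, 2.44% were called lower and 4.49% higher in this comparison, whose split of 633 higher and 344 lower moved to 499 and 421 under quantile normalization. The 10 comprised 3 of the 8 variants (H2ax, H2az1 and H1f0), 6 of the 25 replication-dependent genes and H1f10, and 3 of the 6 (H3c8, H3c4 and H4c12) had passed the filter only through libraries without 4-OHT. In Type V 5 histone genes fell, H2ax, H2az1, H1f10, H4c9 and H3c3, and H2aj rose, with H3c3 of that same kind, beside 1.90% of all genes called lower and 3.39% higher. Fitted to the compared groups alone, 6 histone genes were called in Type D and 1, H2aj, in Type V, while the calls among all genes went from 977 to 766 and from 746 to 291. In bulk libraries, fewer dividing cells and less histone mRNA per cell cannot be told apart. Nor can 4-OHT itself and p53, because all Restored libraries had 4-OHT and no Control library did. Type D lines die after restoration, and the part of cell loss at 72 h was not tested.

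H2ax had the largest change among the histone genes in both types. Its annotated transcript holds a stem-loop, so after poly(A) selection these values may not cover all its mRNA. In Type D it was at 136, 165 and 100 TPM in Control and at 20.3, 17.8 and 16.9 TPM in Restored. The Type V lines had it at 85.4, 128 and 101 TPM in Control and at 23.4, 37.5 and 43 TPM in Restored. Restored and Control libraries did not overlap in either type. In Type D limma gave -2.78 log2 (SE 0.246, adjusted p 3.69e-07), a 6.86-fold fall on this scale, and in Type V -1.60 (SE 0.246, adjusted p 0.000257).

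The H2ax estimates were larger in Type D. Line by line the change was -2.69, -3.14 and -2.50 log2 in Type D and -1.83, -1.74 and -1.22 in Type V. The test of the difference gave -1.18 log2 (SE 0.348, limma adjusted p 0.776), and with the cell line as a block -1.18 (SE 0.223, adjusted p 0.00893), which is a call. H2ax was lower in Restored Type D than in Restored Type V by a log2 change of -0.84 (adjusted p 0.0265), under the threshold of 1 log2.

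H2az1 fell in both types, with close estimates. It was at 638, 998 and 598 TPM in Control and 271, 313 and 234 TPM in Restored Type D. The Type V lines had 795, 708 and 536 TPM in Control and 335, 230 and 188 TPM in Restored. No Restored library reached a Control library of its type. For Type D lines limma gave -1.42 log2 (SE 0.256, adjusted p 0.000864) and for Type V lines -1.46 (SE 0.256, adjusted p 0.00087), and the difference between them was 0.04 (SE 0.362, adjusted p 1). Its paralogue H2az2 had changes of -0.63 (adjusted p 0.296) in Type D and -0.32 (adjusted p 0.701) in Type V, not called.

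H1f0 was at 444, 788 and 449 TPM in Control and 114, 179 and 286 TPM in Restored Type D, without overlap. In Type V it was at 251, 351 and 201 TPM in Control and 106, 194 and 106 TPM in Restored. It was lower in Restored than in Control in 6 of 6 lines. Its Type D change of -1.58 log2 (SE 0.378, limma adjusted p 0.00837) was no longer called without replicate 1 (-1.39, adjusted p 0.0726) or without replicate 2 (-1.30, adjusted p 0.13). Its Type V change was -1.0 (SE 0.378, adjusted p 0.108), and with the cell line as a block it was called at the same size (adjusted p 0.000665).

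H1f10 was called lower in both types. Its TPM was 109, 121 and 98.8 in Control and 28.1, 13.7 and 40.7 in Restored Type D, and 83, 123 and 65.5 in Control and 38.5, 39.9 and 33.2 in Restored Type V. By limma it fell by 2.08 log2 in Type D (adjusted p 0.000421) and by 1.22 in Type V (adjusted p 0.0304). The Type V call was lost when any of its 3 lines was left out, at adjusted p 0.137, 0.207 and 0.08.

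H2aj was the one histone gene that rose. It was at 58.2, 69.9 and 75.5 TPM in Control and 155, 138 and 150 TPM in Restored Type V, and its change there was 1.12 log2 (SE 0.21, limma adjusted p 0.00158). Without replicate 1 of Type V the change was 0.98 (adjusted p 0.0442), just under 1 log2. In Type D it was at 127, 75.2 and 79.8 TPM in Control and 167, 154 and 130 TPM in Restored, also without overlap, with a change of 0.70 (adjusted p 0.0324) that is under 1 log2. It was higher in Restored in 6 of 6 lines, and in Restored the types had nearly the same mean, 150 ± 18.8 and 148 ± 8.67 TPM (SD, n = 3).

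The H3.3 genes and macroH2A1 were not called in either type. H3f3a was lower in Restored in 6 of 6 lines, by -0.64 log2 in Type D (SE 0.113, limma adjusted p 0.000739), under the size threshold, and by -0.22 in Type V (adjusted p 0.279). H3f3b, the most abundant histone gene, had changes of -0.11 in Type D (SE 0.283, adjusted p 0.902) and 0.03 in Type V (adjusted p 0.989). It was at 728, 1106 and 969 TPM in Control and 706, 761 and 1162 TPM in Restored Type D, and the ranges overlapped. Macroh2a1 had changes of -0.12 (adjusted p 0.697) and -0.28 (adjusted p 0.294).

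Of the replication-dependent genes, H2bc4 fell most in Type D. It was at 33.5, 48.7 and 34.2 TPM in Control and 1.67, 7.47 and 8.96 TPM in Restored Type D, a change of -2.69 log2 (SE 0.552, limma adjusted p 0.00261). In Type V it was at 3.06, 14.6 and 8.16 TPM in Control and 2.21, 5.78 and 1.92 TPM in Restored, with overlapping ranges. The change there was -1.06 (SE 0.552, adjusted p 0.277), called with the cell line as a block (adjusted p 0.0183).

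H4c9 fell in both types. It was at 31.2, 14.8 and 16.4 TPM in Control and 3.30, 3.17 and 6.65 TPM in Restored Type D, and at 20.6, 19.4 and 16 TPM in Control and 7.93, 4.73 and 4.90 TPM in Restored Type V. Groups did not overlap. By limma the Type D change was -2.00 log2 (SE 0.426, adjusted p 0.00354) and the Type V change -1.54 (SE 0.426, adjusted p 0.0246). The Type D call was lost without replicate 1 (-1.55, adjusted p 0.0866), and the Type V call without any one of its lines (adjusted p 0.0941 to 0.171).

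H1f2 depended on the line. In Type D it was at 81.8, 163 and 97.8 TPM in Control and 11.9, 93.1 and 67.1 TPM in Restored, so that replicate 1 fell by far the most. The Type V lines had 16, 43.9 and 19.9 TPM in Control and 28.1, 36.1 and 22.4 TPM in Restored, higher in 2 of the 3 lines. The change in Type D was -1.34 log2 (limma adjusted p 0.253), called with the cell line as a block (adjusted p 0.00593).

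The other calls were of genes under 5 TPM in every library. In Type D these were H3c8 (-1.56 log2, limma adjusted p 0.00301), H4c8 (-1.14, 0.045), H3c4 (-1.06, 0.0354) and H4c12 (-1.04, 0.0309), and in Type V H3c3 (-1.31, 0.032). H3c8 was at 2.89, 2.34 and 4.00 TPM in Control and 0, 0.324 and 0.908 TPM in Restored Type D, while in Type V it was at 0, 1.45 and 0.336 TPM in Control. Except for H4c8, these genes reached 1 TPM in no library with 4-OHT and were tested only because of the libraries without it. The pseudocount of 1 understates changes at such levels. Each of these 5 calls was lost when 1 or more of the lines was left out: H3c8 without replicate 1 (adjusted p 0.0519), H4c8 and H4c12 without replicate 1 or 2, H3c4 without any one line and H3c3 without replicate 2 or 3. With the cell line as a block H2bc9 was also called in Type D (-1.02, limma adjusted p 0.0426) and H1f3 in Type V (-1.01, limma adjusted p 0.000127). H2bc9 too had passed the filter only through libraries without 4-OHT.

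H2aw and H2bc8 were abundant but not called. H2aw had 17.6, 20 and 16.5 TPM in Control and 10.5, 16 and 16.3 TPM in Restored Type D, lower in each line with ranges that nearly met. In Type V it had 4.39, 14.7 and 16.6 TPM in Control and 10.1, 13.1 and 19.4 TPM in Restored, higher in 2 of 3 lines. H2bc8 differed between lines more than between conditions, from 3.77 TPM in replicate 1 to 30.6 TPM in replicate 2 of Type D Control.

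**Figure D3:**
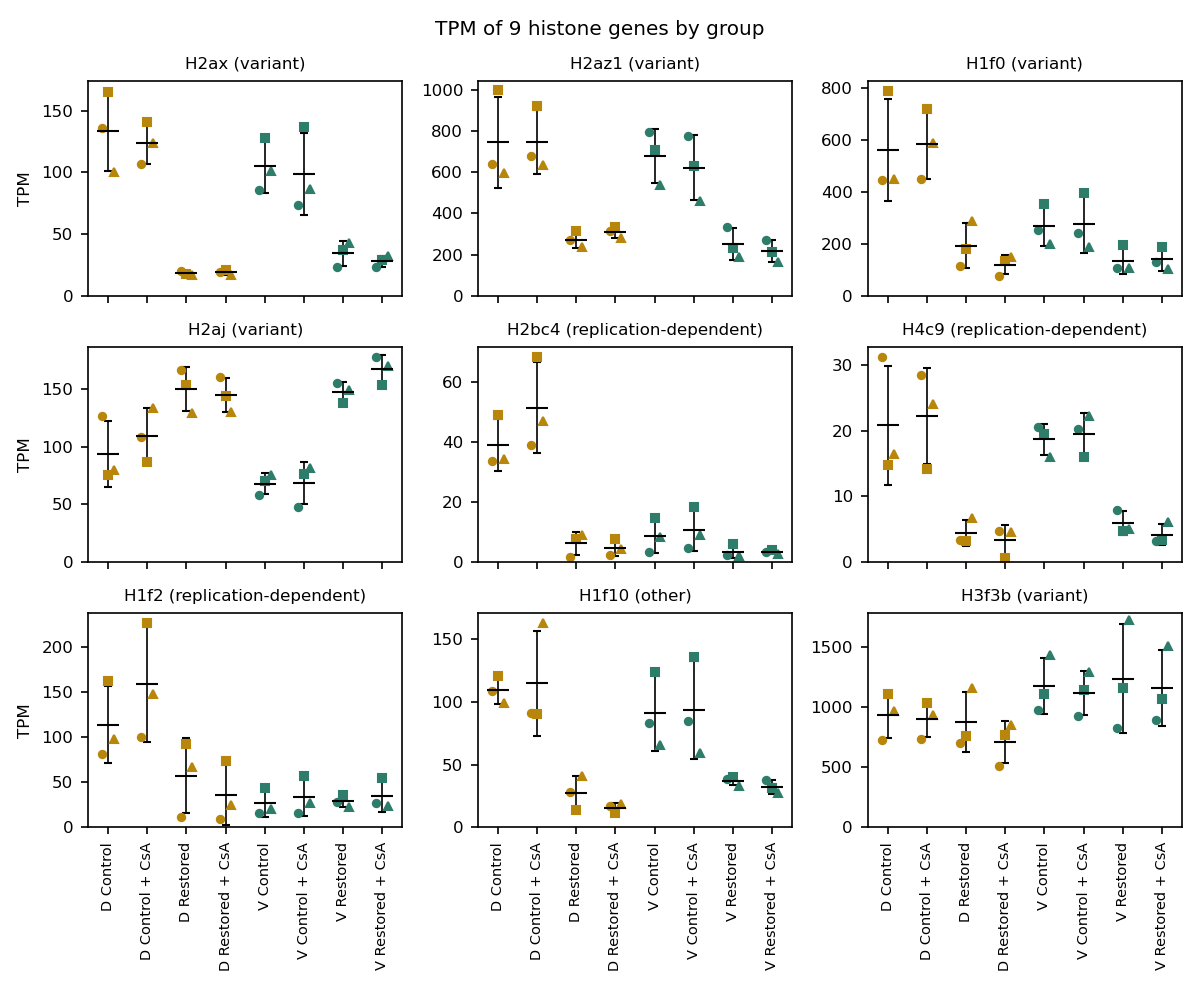
TPM of 9 histone genes in the 8 groups, with 1 point per cell line (circle, square and triangle for replicates 1, 2 and 3), the mean as a bar and the SD as error bars (n = 3). H2ax, H2az1, H1f10 and H4c9 are lower in the Restored groups of both types, H2aj is higher, and H3f3b overlaps.

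Over the 8 variants the median change was -0.63 log2 in Type D, beside 0.07 for all 14104 genes, and -0.30 in Type V, beside 0.05. No median or count of lower genes is given over the replication-dependent genes tested, because of the filter. H2ax, H2az1, H1f0, H1f10, H2bc4 and H4c9 were the 6 histone genes called lower over both types together, beside 2.22% of all genes called lower and 4.62% called higher, a split of 652 and 313 that became 521 and 391 under quantile normalization.

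**Figure D4:**
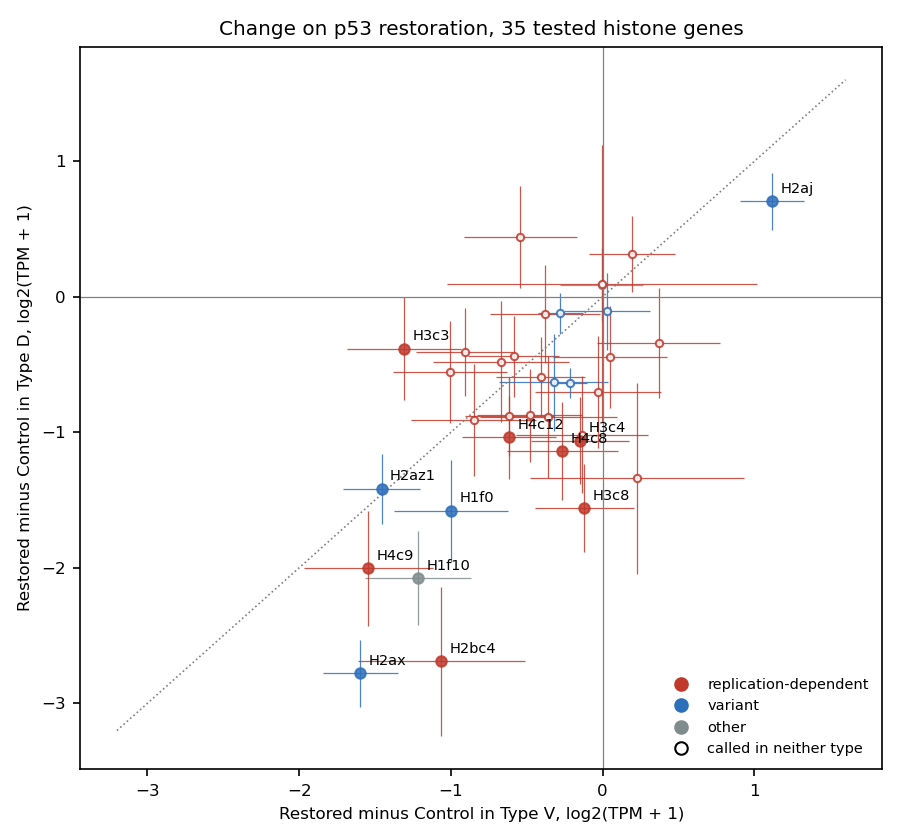
Change on restoration in Type V (horizontal) and Type D (vertical), in log2(TPM + 1), for the 35 tested histone genes, with SE bars and a dotted line of equal change. Filled points are called in at least 1 type. H2ax and H2bc4 lie farthest down. Of the 25 replication-dependent genes, 12 passed the filter only through libraries without 4-OHT, so a position below 0 was in part set for these.

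No histone gene was called for a difference of the restoration change between the types, beside 4 of 14104 genes (0.0284%). At an unadjusted p under 0.05 there were 3 of 35 histone genes and 540 genes in all. With the cell line as a block the histone calls were 2, H2ax as above and H3c8 (-1.44 log2, SE 0.397, limma adjusted p 0.0458), among 344 genes in all. H3c8 was at 0 to 1.45 TPM in Type V Control and had passed the filter only through libraries without 4-OHT.

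Restoration was also compared among the CsA-treated libraries. In Type D 9 histone genes fell between Control + CsA and Restored + CsA and none rose, beside 1.88% of all genes called lower and 3.53% higher. The all-gene split of 498 higher and 265 lower became 373 and 324 under quantile normalization, which moved the median change of all genes from 0.09 to -0.01. Those called were H2bc4 (-3.30 log2, limma adjusted p 0.000506), H1f10 (-2.79), H2ax (-2.64, 7.68e-07), H4c9 (-2.62), H1f2 (-2.50, 0.0311), H1f0 (-2.30), H2bc21 (-1.53, 0.0398), H3c8 (-1.51) and H2az1 (-1.26, 0.00311). In Type V H4c9 (-2.03), H2ax (-1.75), H2az1 (-1.51) and H1f10 (-1.45) fell and H2aj (1.31, limma adjusted p 0.000367) rose, beside 1.77% of all genes called lower and 2.84% higher. In Type D the calls of H2bc21 (without any one line), H1f2 and H3c8 (without replicate 1 or 3) were lost, and in Type V those of H1f10 (without replicate 1 or 2) and H4c9 (without replicate 1). H3c8 had passed the filter only through libraries without 4-OHT. With the cell line as a block 13 were lower in Type D, with H1f3, H2bc8, H2bc9 and H4c8 added, and 6 in Type V, with H2bc4 and H4c4 added.

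CsA itself changed no histone gene past the threshold. In Control + CsA against Control the count was 0 of 35 in Type D and 0 of 35 in Type V, and 0% of all genes were called. At an unadjusted p under 0.05 there were 0 histone genes in either type, beside 114 and 54 of all 14104 genes. In Restored + CsA against Restored the count of calls was also 0 of 35 in each type. There 0 and 2 histone genes had an unadjusted p under 0.05, beside 229 and 100 of all 14104 genes. Of all genes 0.0142% were called there in Type D and 0% in Type V. With the cell line as a block these 4 counts were likewise 0. The changes of the 8 variants in Control + CsA of Type D ranged from -0.14 to 0.24 log2, with a median of -0.06.

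Before restoration Type D exceeded Type V in 3 histone genes, all replication-dependent, and fell below it in none, beside 4.42% of all genes called higher and 4.41% lower. H2bc4 was at 33.5, 48.7 and 34.2 TPM in Type D and 3.06, 14.6 and 8.16 TPM in Type V, a difference of 2.23 log2 (SE 0.552, limma adjusted p 0.0105). H3c8 (1.44, adjusted p 0.00602) and H2bc18 (1.50, adjusted p 0.0211, lost without replicate 1 or 2 of Type D or 2 or 3 of Type V) were at 2.34 to 4.00 and 2.54 to 3.11 TPM in Type D. They reached 1 TPM in 6 and 10 Type D libraries and in 2 and 2 Type V libraries, so both passed the filter through the type in which they were higher. Fitted to the compared groups alone, 0 of the 3 were called, while the calls among all genes went from 1246 to 631. In the shared fit the H2bc4 call was lost without replicate 1 of Type V (1.72, limma adjusted p 0.0704). Under median-ratio scaling, which moved the median difference of all genes from -0.12 to -0.02, H1f2 (2.24, adjusted p 0.041) and H4c8 (1.13, adjusted p 0.0441) were called as well.

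Among the variants, H1f0 had a difference of 1.05 log2 between Control groups (limma adjusted p 0.0749) and Macroh2a1 one of 0.46 (adjusted p 0.0464), neither called. The other 6 had estimates from -0.33 to 0.43. The fibroblast markers named above differed between the types as well. So did the sum of 4 epithelial markers, Epcam, Cdh1, Krt8 and Krt18. That sum was 6695 to 11816 TPM in Type D Control and 663 to 1577 TPM in Type V Control. Over all 24 libraries Krt8, Krt18 and Cdh1 reached 5797, 5115 and 1050 TPM, while Epcam was at 0.124 to 4.57 TPM. In Restored the epithelial sum was 4425 to 9101 TPM in Type D and 490 to 839 TPM in Type V, with 0 of 4 markers called on restoration in either type and a median change of -0.70 log2 in each. The mean fibroblast sum in Type V was 346 TPM in Control and 153 TPM in Restored. The part of these markers in the type and restoration differences was not tested. In Restored no histone gene was called between the types, beside 4.45% of all genes called higher and 4.99% lower in Type D. At an unadjusted p under 0.05 there were 6 of 35 histone genes, beside 4120 of all 14104 genes. With a pseudocount of 0.1 there were 3 calls, H1f3 (2.75 log2) and H2ac8 (2.92), higher in Type D, and H2afy3 (-2.61), lower. H1f3 and H2afy3 had each passed the filter only through the type in which they were higher. The means of these 3 genes in the Restored groups were 1.10 TPM or less, where a small pseudocount enlarges changes. Without replicate 1 of Type V there was 1 call, H2ax (-1.09, limma adjusted p 0.00899).

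Genes that act on histones or their mRNAs were read for context. Of 17 tested genes for histone mRNA processing and transcription, among them Slbp and Npat, none was called on restoration in either type. The unadjusted p was under 0.05 for 3 in Type D and 7 in Type V, beside 3563 and 3117 of all 14104 genes. Median changes were -0.16 and -0.34 log2. Of 26 histone chaperones and exchange factors, Asf1b (an H3-H4 chaperone) and Anp32e (a chaperone of H2A.Z) were called lower in both types. Their log2 changes were -1.59 and -1.57 in Type D and -1.27 and -1.60 in Type V. Ep400, the ATPase of a complex that handles H2A.Z, rose in Type D (1.33), and Nasp, a chaperone of H3 and H4, fell in Type V (-1.10). Cenpa, the H3 variant of centromeres, fell by 2.84 log2 in Type D and by 2.30 in Type V.

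Of 31 genes for S phase and proliferation, 5 were called lower in Type D and 4 in Type V, and none higher. Among all genes 2.44% and 1.90% were called lower. The other genes of this list were not called. Ccna2 (cyclin A2), Top2a (topoisomerase 2 alpha) and Mki67 (the Ki-67 antigen) had the largest changes, -3.51, -3.19 and -3.07 log2 in Type D and -2.51, -2.12 and -2.03 in Type V. Ccna2, Top2a and Mki67 moved in the direction of the histone genes called lower, while H2aj rose. Their part in the histone changes was not tested. Of 104 tested RNAs that normally lack a poly(A) tail, such as small nucleolar RNAs, 1 was called higher in Type D (Snora64) and 1 lower in Type V (Rpph1). The sum over all 126 such RNAs in the table was 1482 to 4516 TPM, with overlap between Control and Restored of each type. The part of carried-over RNA in the replication-dependent values was not tested.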

How the data were processed

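The authors deposited 1 table of TPM values, used here as deposited, from stranded, poly(A)-selected mRNA libraries read single-end. The study's methods name Kallisto or HISAT2 and the submitters' notes HISAT2, and both mm10 and GRCm39 are named, so the counter and build behind the table are uncertain. TPM holds no counts, depth is unknown, and no interval from counting can be given. Columns were matched to samples by the labels, with 0 columns left over.

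Members and lists were chosen with earlier results of these data known. The scale was log2(TPM + 1), which understates fold changes of low genes. The 14104 of 25239 genes that reached 1 TPM in 3 or more libraries entered limma 3.58.1 under R 4.3.3 (a mean for each group, variance moderated with a trend), in 12 two-sided comparisons. Benjamini-Hochberg adjustment was over all genes of a comparison. The genes named are the variants, the 12 most abundant replication-dependent genes and called members (at most 8 each way), plus called genes of the context lists (at most 3 each way per list). H3c4, H4c12, H2bc9 and H2afy3 were named after their values were seen.

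Libraries are paired by cell line, per the labels. After group means were removed, libraries of a line correlated at r of 0.599 to 0.929 (36 pairs) and those of different lines of a type at -0.727 to 0.0438 (96 pairs). Removing the mean of a small group pushes r between its lines below 0, so the values between lines were in part set in advance. The block by cell line was an alternative, and is given beside a result where it changes a call. It cannot be used between types within a condition. Replicates of a group correlated at 0.883 to 0.978. In simulated data 63% of genes changed by 1.5 log2 and 88% of those changed by 3 log2 were called in Type D, in a test with 14104 genes. The simulated libraries were independent, without the pairing by cell line, so these shares may not hold for the real libraries. The other settings tried were quantile normalization, median-ratio scaling, the compared groups alone, each line left out, no filter or one at 5 TPM, and 0.1 as pseudocount. Sequences are from GENCODE M21 and RefSeq (GRCm38). Figures were drawn in matplotlib.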

Additional observations from a re-analysis of the deposited data

Results flagged for a closer look

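A pair of histone genes differed between the types in their change on restoration, by a test of that difference with the cell line as a block. H2ax had a difference of -1.18 log2, Type D minus Type V, and was lower in Restored in 6 of 6 lines. H3c8 had a difference of -1.44 log2, and was lower in 3 of 3 Type D lines and 2 of 3 Type V lines, in 1 of them by -0.0025 log2. It was under 4 TPM in every library, reached 1 TPM in no library with 4-OHT, and was at 0, 1.45 and 0.336 TPM in Type V Control, so the difference is in part set by the level it could fall from. Without the block neither was called.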

How the results depend on the processing

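With the cell line as a replicate block, the count of histone genes called for a difference of the restoration change was 2 (0 without), and the changed calls named in the report and H1f3, H2bc8, H2bc9 and H4c8 (Type D) and H2bc4 and H4c4 (Type V) with CsA were added. With the compared groups alone, calls were 6 for Restored minus Control in Type D (10 in the shared fit), 1 in Type V (6), 2 with CsA in Type V (5) and 0 for the types in Control (3). A minimum of 5 TPM gave 6 in Type D, with fewer genes tested. A pseudocount of 0.1 gave 12 over both types (6) and 3 for the types in Restored (0). Among all genes it gave 1222 (965) and 1459 (1331). Median-ratio scaling and quantile normalization each gave 5 for the types in Control (3), beside 1251 and 1258 of all genes (1246). Except where stated, the cause was not tested. With each line left out, the counts ranged from 4 to 9 in Type D, were 3 in Type V, from 3 to 5 with CsA in Type V and from 0 to 1 for the types in Restored.

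Signs turned only for uncalled estimates near 0. Median-ratio scaling gave 0.0738 for H2az2 and 0.0935 for H3f3a (types in Control) and -0.0003 for H3f3b (restoration, Type V). With each line left out, the difference between the types in Control ranged from -0.118 to 0.251 for H2az1, from -0.275 to 0.236 for H2az2 and from -0.151 to 0.0498 for H3f3a. In Restored it ranged from -0.0609 to 0.119 for H2aj and from -0.0344 to 0.381 for H2az1. The restoration change of H3f3b ranged from -0.292 to 0.108 in Type D and from -0.0873 to 0.165 in Type V. Among the single values followed, those of the variants in the comparisons without CsA within a type or between the types and of the genes called in the shared fit, 402 kept direction and side of the threshold under other settings, 22 lost the call, 1 gained it and 3 turned. With a line left out these were 220, 36, 1 and 13. Genes called under another setting alone are not in these counts.

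Without H1f2 the mean replication-dependent sum was 133.8, 156.8, 55.1 and 42.0 TPM in Type D Control, Control + CsA, Restored and Restored + CsA, and 77.4, 73.7, 43.6 and 44.3 TPM in the same groups of Type V. Without H3f3b the mean variant sums, in the same order, were 2107, 2095, 1062 and 1025 TPM in Type D, and in Type V 1644, 1579, 1009.5 and 963 TPM. Depth is unknown, so genes under 1 TPM cannot be called absent.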
